A study of Rattus norvegicus with 6 samples.

Results

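The brush border is the carpet of microvilli on the free face of intestinal epithelial cells. The 10 genes followed here help to build it, and they were measured in colon enterocyte nuclei of rats with dextran sulfate sodium (DSS) colitis. They were chosen by name (Vil1, Espn, Pls1, Ezr, Myo1a, Cdhr2, Cdhr5, Ush1c, Myo7b and Eps8), and all 10 were present among the 17388 genes of the enterocyte count tables. Single nuclei came from flash-frozen colon of male wildtype Wistar rats in 3 treatments. Sham rats drank water only. Placebo rats drank 5% DSS, an agent that damages colon epithelium, over 3 days, followed by 4 days of empty capsules given 2 times daily. PL8177 rats had the same DSS and the same capsule schedule with 50 µg of PL8177, a melanocortin 1 receptor agonist, per capsule. The names of the nuclei begin with 9 tags, 3 in each treatment (GR12, GR13 and GR15 sham, GR22, GR23 and GR24 placebo, GR41, GR43 and GR44 PL8177). Each tag was read as the library of 1 rat, although the labels do not list the rats, and p-values measure the spread between these libraries.

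Each microvillus holds a core of parallel actin filaments. Villin (Vil1), espin (Espn) and plastin 1 (Pls1) bundle the filaments, ezrin (Ezr) and the motor myosin 1a (Myo1a) tie the bundle to the membrane around it, and EPS8 (Eps8) sits at the tip, where actin filaments grow. The protocadherins CDHR2 and CDHR5 join the tips of neighbouring microvilli, held there by the scaffold harmonin (Ush1c) and the motor myosin 7b (Myo7b), and the brush border becomes denser as enterocytes move from the crypt to the surface of the epithelium.

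RefSeq promoter windows of 300 bases (build GRCr8) were found for 8 of the 10 genes, all but Eps8 and Myo7b. Those of 6 spanned the annotated gene start, while the Myo1a and Pls1 windows lay inside the gene and were left out. The windows of 4 genes are shown, because these genes gave the results below: the intermicrovillar protocadherins, ezrin, and villin, whose levels in the surface comparison are given library by library. Capitals mark CAAAG, the core of the HNF4 motif, and TTTAT, the core of the CDX motif, on either strand (also read as CTTTG and ATAAA). Among the windows of all genes that spanned a gene start, 54.1% of 26159 held the first and 43.99% the second, and among the 6 windows 1 and 1 did. The Cdhr2 window (chr17:9917649-9917948, minus strand) held 1 CAAAG, the Cdhr5 window (chr1:205811043-205811342, minus strand) held 1 ATAAA, which is also part of a TATA-like run, and neither was present in the Vil1 (chr9:83439998-83440297, plus strand) and Ezr (chr1:49416524-49416823, minus strand) windows.
Cdhr2: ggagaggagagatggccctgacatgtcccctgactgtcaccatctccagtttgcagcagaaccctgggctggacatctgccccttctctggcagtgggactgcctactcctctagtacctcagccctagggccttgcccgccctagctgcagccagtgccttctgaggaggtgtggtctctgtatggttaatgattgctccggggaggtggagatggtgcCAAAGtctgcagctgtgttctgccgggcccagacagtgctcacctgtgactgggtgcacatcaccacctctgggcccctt
Cdhr5: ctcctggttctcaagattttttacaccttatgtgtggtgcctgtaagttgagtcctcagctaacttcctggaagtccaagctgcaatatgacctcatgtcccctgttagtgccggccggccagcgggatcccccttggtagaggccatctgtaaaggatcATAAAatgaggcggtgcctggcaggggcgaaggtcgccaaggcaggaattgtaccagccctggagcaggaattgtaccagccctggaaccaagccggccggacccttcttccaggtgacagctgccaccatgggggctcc
Ezr: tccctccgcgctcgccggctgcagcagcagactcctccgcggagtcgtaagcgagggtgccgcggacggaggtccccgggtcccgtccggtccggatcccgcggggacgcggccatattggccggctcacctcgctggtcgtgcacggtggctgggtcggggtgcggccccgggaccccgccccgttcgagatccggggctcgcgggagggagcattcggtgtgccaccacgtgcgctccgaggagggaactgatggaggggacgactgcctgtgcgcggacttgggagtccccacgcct
Vil1: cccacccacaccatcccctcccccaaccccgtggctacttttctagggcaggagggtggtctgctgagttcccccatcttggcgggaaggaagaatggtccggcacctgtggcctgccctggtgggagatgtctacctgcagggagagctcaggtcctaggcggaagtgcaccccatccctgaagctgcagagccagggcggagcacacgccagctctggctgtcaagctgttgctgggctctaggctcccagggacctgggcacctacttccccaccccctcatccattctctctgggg

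The enterocyte tables held 8782 nuclei, 304 to 1531 per library, and 319125 to 4123319 unique molecular identifiers (UMIs, each counting 1 captured RNA molecule) per library. The median nucleus had 437 UMIs in the shallowest library (GR13) and 2331 in the deepest (GR12). Levels are given as UMIs per 10000 UMIs of a library, so fewer transcripts per nucleus and fewer nuclei that make them cannot be told apart. They are not divided by gene length, and no level is compared between genes. The 11 enterocyte markers found summed to 111 to 273 per 10000 in the 9 libraries and the 14 T cell markers to 0.156 to 0.846. The placebo library GR23 stood apart, since its nuclei labelled as T cells carried enterocyte markers and few T cell markers (values below). Results that rest on GR23 are given with and without it. At most 1 nucleus barcode was shared by any pair of libraries.

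The 10 genes together made up 102909 of 16849144 enterocyte UMIs, and 90.4% of the nuclei (95% exact binomial interval 89.7 to 91.0) held at least 1 of these UMIs. This interval, like those for shares below, covers counting error only. The share of nuclei with none ran from 2.26% in GR12 to 22.0% in GR23. The summed level of the 10 genes was 53.2, 75.7 and 49.1 per 10000 in the sham libraries (GR12, GR13, GR15), 57.0, 50.5 and 57.3 in placebo (GR22, GR23, GR24) and 68.5, 67.8 and 73.9 in PL8177 (GR41, GR43, GR44). All 3 PL8177 libraries lay above all 3 placebo libraries, and the sham library GR13 lay above every other one. Across the 9 libraries, Espn varied most, 4.01-fold from lowest to highest, and Myo7b least, 1.36-fold. The sham library GR15 had the lowest level of 6 of the 10 genes, and the PL8177 library GR44 the highest level of 4.

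Among the bundling proteins, Vil1 was at 3.84, 4.61 and 2.79 per 10000 in the sham libraries, 7.15, 4.58 and 4.75 in the placebo libraries and 9.04, 5.92 and 5.26 in the PL8177 libraries. The PL8177 libraries were all above the sham libraries, while placebo overlapped both. Espn was at 1.02, 2.72 and 2.08 per 10000 in the sham libraries, 1.26, 1.16 and 2.45 in the placebo libraries and 1.10, 1.63 and 4.11 in the PL8177 libraries, with 1 high library in PL8177 and overlap of all groups. Pls1 was at 7.89, 7.04 and 5.45 per 10000 in the sham libraries, 7.19, 7.43 and 7.07 in the placebo libraries and 6.07, 8.11 and 7.68 in the PL8177 libraries. Its placebo libraries lay within the range of both other groups.

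Of the proteins that tie actin to the membrane, Ezr was at 5.38, 5.41 and 4.28 per 10000 in the sham libraries, 4.56, 3.70 and 3.41 in the placebo libraries and 6.77, 5.65 and 6.95 in the PL8177 libraries. Every PL8177 library was above every placebo and every sham library, and sham and placebo overlapped. Myo1a, the motor that tethers the bundle sideways, was at 1.27, 1.36 and 1.25 per 10000 in the sham libraries, 2.15, 1.41 and 2.33 in the placebo libraries and 1.91, 2.24 and 2.69 in the PL8177 libraries. Its 3 sham libraries were the lowest of the 9, and placebo and PL8177 overlapped.

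Of the tip-link genes, Cdhr5 was at 6.02, 8.02 and 6.72 per 10000 in the sham libraries, 5.04, 4.83 and 6.22 in the placebo libraries and 9.39, 9.85 and 7.33 in the PL8177 libraries. Its PL8177 libraries were all above placebo and overlapped sham. Cdhr2, its partner at the microvillus tip, was at 3.63, 7.06 and 4.26 per 10000 in the sham libraries, 5.33, 3.76 and 3.23 in the placebo libraries and 6.73, 6.20 and 4.75 in the PL8177 libraries, with overlap in each comparison. Ush1c was at 1.91, 1.78 and 1.72 per 10000 in the sham libraries, 2.27, 2.10 and 2.20 in the placebo libraries and 2.89, 2.49 and 2.31 in the PL8177 libraries. The 3 groups of this scaffold gene did not overlap, with sham lowest and PL8177 highest. Myo7b was at 7.75, 7.53 and 6.78 per 10000 in the sham libraries, 7.20, 7.11 and 7.12 in the placebo libraries and 8.59, 8.70 and 9.21 in the PL8177 libraries, so that PL8177 lay above both other groups. Eps8, at the tip, was at 14.5, 30.2 and 13.8 per 10000 in the sham libraries, 14.8, 14.5 and 18.5 in the placebo libraries and 16.01, 16.998 and 23.6 in the PL8177 libraries, and the high sham value was that of GR13 alone.

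**Figure D1:**
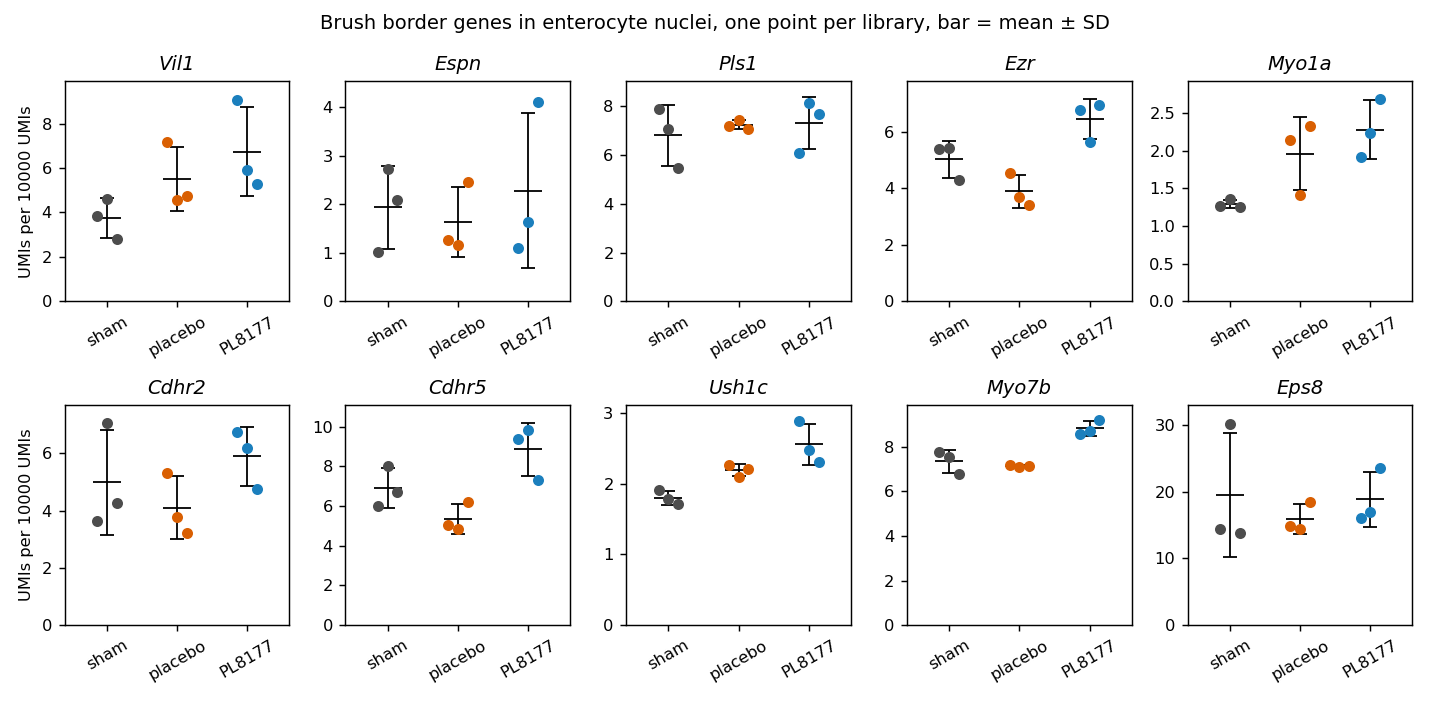
UMIs per 10000 UMIs (linear axes from 0) of the 10 genes in enterocyte nuclei, with 1 point for each of 3 libraries per treatment and the mean ± SD in black. For Ezr, PL8177 libraries at 5.65 to 6.95 sat above placebo libraries at 3.41 to 4.56, while for Espn the PL8177 libraries spanned 1.10 to 4.11.

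PL8177 against placebo compares drug and empty capsules after the same DSS. All 10 genes had a fitted change above 0, as had 48.7% of the 9424 genes tested, and the median of the 10 was 0.46 on the log2 scale against -0.01 for all genes. None of the 10 passed the test (edgeR, adjusted p below 0.05 and log2 fold change above 0.5), nor did any other gene, so the background was 0%. At an unadjusted p below 0.05, 871 genes remained in either direction; 4 of the 10 (Ezr, Cdhr5, Myo7b and Cdhr2) were higher, against 5.5% of all genes. DESeq2 called 63 genes, 0.669% of those tested, among them Ezr and Cdhr5.

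Ezr was 6.46 ± 0.702 per 10000 in PL8177 and 3.89 ± 0.598 in placebo (SD, n = 3), with a log2 change of 0.90 ± 0.23 (SE) and an edgeR adjusted p of 0.270 (DESeq2 adjusted p = 0.0413). Cdhr5 was 8.85 ± 1.34 in PL8177 and 5.36 ± 0.75 in placebo, with a log2 change of 0.88 ± 0.23 and an edgeR adjusted p of 0.288 (DESeq2 adjusted p = 0.0490). Calls of these membrane linker and tip-link genes therefore rested on the choice of the test. Cdhr2 (0.68 ± 0.31), Espn (0.64 ± 0.52), Myo7b (0.47 ± 0.20), Vil1 (0.45 ± 0.29), Eps8 (0.42 ± 0.35), Ush1c (0.38 ± 0.20), Myo1a (0.36 ± 0.26) and Pls1 (0.18 ± 0.22) had edgeR adjusted p of 0.511 to 0.857. Without GR23, the changes of Ezr and Cdhr5 were 0.82 and 0.77, and without GR44 that of Espn turned to -0.14. The 9 surface enterocyte markers (among them Slc26a3, Krt20 and Car4) summed to 167, 205 and 229 per 10000 in the PL8177 libraries and 186, 121 and 122 in the placebo libraries. The T cell markers in the same enterocyte nuclei summed to 0.224, 0.361 and 0.156 per 10000 in PL8177 (6 to 9 of 14 at 0) and 0.392, 0.846 and 0.656 in placebo (3 to 7 at 0), without overlap. The part of either marker list in these changes was not tested. The 4 genes Cdhr5, Myo7b, Ush1c and Ezr had all 3 PL8177 libraries above all 3 placebo libraries, against 4.7% of all genes, and an exact two-sided permutation test on the levels gave p = 0.1 for each, the smallest that 3 against 3 libraries allow. The edgeR scaling (TMM) moved all genes by 0.18 on the log2 scale in this comparison relative to plain totals, and on plain totals the mean levels of all 10 were still higher in PL8177.

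Sham against placebo sets rats without DSS, for which no capsules are listed, against rats with DSS and empty capsules, read here as sham minus placebo. DSS and capsules cannot be told apart in it. Of the 10 genes, 7 had a fitted change above 0, against 48.3% of all genes, with a median of 0.29 against -0.02. On plain totals 6 were higher and 4 lower, since TMM moved all genes by 0.16 and Pls1 changed side. No gene passed the edgeR test (0%), 1172 genes had an unadjusted p below 0.05, and DESeq2 called 107 genes (1.14%), none of them among the 10. Ezr (0.53 ± 0.23, edgeR adjusted p = 0.382) and Cdhr5 (0.53 ± 0.23, edgeR adjusted p = 0.388) were the 2 with an unadjusted p below 0.05, against 6.54% of all genes higher at that level. Lower in sham were Myo1a (-0.47 ± 0.26), Vil1 (-0.39 ± 0.30) and Ush1c (-0.13 ± 0.20), with edgeR adjusted p of 0.466, 0.600 and 0.824. The changes of Eps8 (0.48 ± 0.35) and Cdhr2 (0.45 ± 0.31) rested on GR13, without which they were -0.08 and 0.02. The surface markers summed to 363 per 10000 in GR13, against 205 in GR12 and 212 in GR15, and all 3 lay above the placebo libraries; their part in this comparison was not tested. None of the genes had all sham libraries above all placebo libraries (5.36% of all genes), and Myo1a and Ush1c had all of them below (14.3% of all genes).

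PL8177 against sham shares its libraries with both comparisons above. Of the 10 genes, 9 were above 0, against 52.8% of all genes (median 0.31 against 0.03 for all genes), and Eps8 was at -0.06 ± 0.35. No gene passed the edgeR test (0%), 621 had an unadjusted p below 0.05, and DESeq2 called 4 genes (0.0424%), none of them among the 10. Vil1 (0.84 ± 0.30), Myo1a (0.83 ± 0.26) and Ush1c (0.51 ± 0.20), all with an edgeR adjusted p of 0.733, were the 3 higher genes at an unadjusted p below 0.05, against 3.09% of all genes. The 5 genes Vil1, Myo1a, Myo7b, Ush1c and Ezr had all PL8177 libraries above all sham libraries, against 6.02% of all genes.

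**Figure D2:**
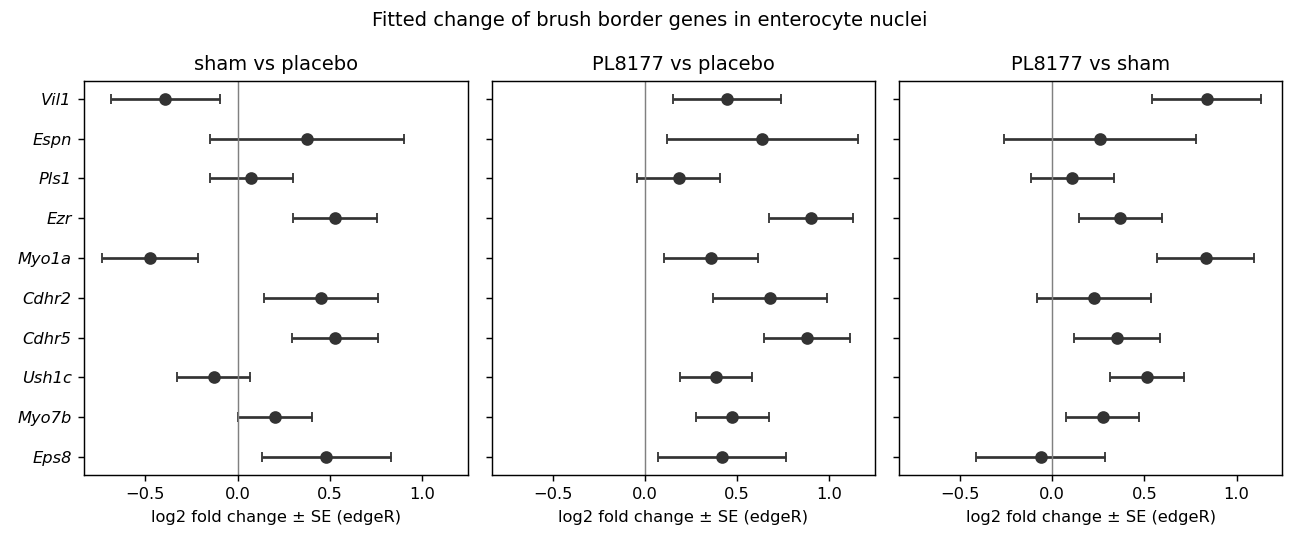
Log2 fold change ± SE from edgeR (linear axis, 0 marked) of the 10 genes in the 3 comparisons of enterocyte libraries, 3 against 3. All points lie above 0 for PL8177 against placebo, from 0.18 for Pls1 to 0.90 for Ezr, and on both sides of 0 for sham against placebo.

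Other genes of the same structures are given beside them. No gene of these lists passed the edgeR test in any of the 3 comparisons. For PL8177 against placebo, 14 of 19 tested genes of other bundlers, membrane linkers and caps were above 0 (median 0.37). So were 9 of 10 of the terminal web, the actin and myosin mesh under the microvilli (median 0.43), and 5 of 6 other myosins (median 0.30). Of the brush border enzymes 4 of 5 were above 0 (median 0.27) and of the transcription factor genes 8 of 10 (median 0.10), against 48.7% of all genes. For sham against placebo the counts of these lists, in the same order, were 10 of 19, 8 of 10, 3 of 6, 0 of 5 and 3 of 10, against 48.3% of all genes. Slc9a3r1, whose product NHERF1 binds ezrin, had log2 changes of 1.29 ± 0.43 in PL8177 and 1.52 ± 0.44 in sham relative to placebo (edgeR adjusted p = 0.409 and 0.219). Vill, a villin-like protein, was at 0.54 ± 0.34 and 0.98 ± 0.35, and the actin nucleator gene Cobl was at 0.05 ± 0.22 and -0.60 ± 0.22. Of the tip-link partners, Anks4b was at 0.73 ± 0.45 and -0.14 ± 0.46 and Calml4 at 0.04 ± 0.27 and 0.02 ± 0.28.

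The remaining lists held values on both sides of 0. In the terminal web, Actn1 was at -0.84 ± 0.35 in PL8177 and -0.94 ± 0.37 in sham relative to placebo, Actn4 at 0.63 ± 0.27 and 0.37 ± 0.27, and Sptan1 at 0.36 ± 0.29 and 0.51 ± 0.29. Among motors, Myo1c was at 1.33 ± 0.52 and 1.31 ± 0.54 and Myo6 at 0.30 ± 0.24 and 0.19 ± 0.24. Of the digestive enzymes, Mgam was at -0.65 ± 0.27 and -0.90 ± 0.28, Ggt1 at 1.22 ± 0.50 and -0.76 ± 0.57, and Mep1b at 0.52 ± 0.37 and -0.26 ± 0.38. The epithelial transcription factor genes Elf3, Hnf4a and Hnf4g were at 0.12 ± 0.62, 0.27 ± 0.37 and -0.20 ± 0.33 for PL8177 and at 2.17 ± 0.65, 0.97 ± 0.38 and -0.67 ± 0.34 for sham rats.

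Within each library, enterocyte nuclei were compared by how much they carried of the 9 surface markers. The crypt class first planned, nuclei with a crypt marker and no surface marker, held 88 nuclei, 1 to 22 per library, against 6726 in the surface class. The 10 genes had 55 of 26400 UMIs there and 12349 of 2017800 in the surface class, or 20.8 and 61.2 per 10000. All 7 that could be tested (not Myo1a, Ush1c and Espn) were called higher in the surface class, against 38.4% of 1142 genes, but the median of all genes was itself at 1.55. These 7 had only 3 to 9 UMIs each in the crypt class, so they passed the low-count filter through the surface class, where they were high. Their calls are therefore a description. With the size factors of DESeq2 in edgeR only Eps8 of the 7 passed (adjusted p = 0.00145), and 58 of the 1142 genes were called, 36 of them higher. The difference between treatments in this contrast passed for 0% of genes.

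A comparison added after these counts were seen ranked the nuclei of each library by surface-marker UMIs, after thinning to 300 UMIs, and set the surface-high nuclei (2738 at the top) against the surface-low nuclei (2738 at the bottom), leaving out the 2744 between them. At the cut, surface-high nuclei held at least 3 to 14 of these UMIs, depending on the library. Surface-low nuclei held at most 2, 8 and 4 in the sham libraries (GR12, GR13, GR15) and at most 1, 0 and 1 in placebo (GR22, GR23, GR24). High and low were therefore not the same marker levels in each treatment. Of the 10 genes, 8 rose with the surface markers in edgeR with the library as a block, against 27.6% of 3292 genes, and none fell, against 26.5%, and the median of the 10 was 1.07 against -0.02. Before thinning, the surface-high nuclei were the deeper ones in 7 of 9 libraries. Crypt markers were higher in the surface-low nuclei in 9 of 9 libraries (medians of 1.90 and 0.949 per 10000), T cell markers in 6 of 9 (0.956 and 0.330) and goblet markers in 4 of 9 (2.43 and 3.14); their part in the result was not tested.

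Eps8 rose most of the 10, by 2.30 ± 0.15 (log2, SE, adjusted p = 4.49e-18, edgeR), from 3.24 to 19.6 per 10000 in surface-low nuclei to 20.5 to 42.2 in surface-high nuclei, and was higher in 9 of 9 libraries. Cdhr2 (1.78 ± 0.18), Pls1 (1.5 ± 0.15) and Cdhr5 (1.34 ± 0.14) were also higher in 9 of 9. Ezr (1.18 ± 0.15), Espn (0.96 ± 0.19) and Myo7b (0.92 ± 0.14) were higher in 8 of 9. These 7 genes include bundlers, a membrane linker and both tip-link protocadherins. Vil1 passed with the smallest change, 0.60 ± 0.14, and was higher in 5 of 9 libraries. Myo1a (0.31 ± 0.19, edgeR adjusted p = 0.155) and Ush1c (0.06 ± 0.20, edgeR adjusted p = 0.793) did not pass, and Ush1c was higher in 2 of 9 libraries. Without Slc26a3 and Muc13, which gave most of the marker UMIs, 7 of the 10 passed as higher, against 616 of 3196 genes higher and 573 lower. Vil1 (0.44 ± 0.14) then fell under the fold threshold.

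The direction of Vil1 was not the same in every library. In sham it was at 2.81, 4.87 and 1.98 per 10000 in surface-high nuclei and 4.33, 5.31 and 2.64 in surface-low nuclei, lower in all 3 libraries (26 against 40, 33 against 36 and 12 against 16 UMIs). In placebo it was at 8.28, 5.93 and 5.81 and at 3.39, 2.96 and 3.02, higher in all 3. In PL8177 it was at 10.3, 5.67 and 5.69 and at 6.43, 4.23 and 5.83. The test of the difference between treatments gave an edgeR adjusted p of 0.257 for Vil1 and passed for 0% of the 3292 genes. Ranked by the other 7 markers, without Slc26a3 and Muc13, Vil1 turned in 2 of the 3 sham libraries. It was at 4.44 in surface-high against 3.46 in surface-low nuclei of GR12 (41 against 32 UMIs) and 3.14 against 2.81 in GR15 (19 against 17). It stayed lower in GR13 (33 against 36) and higher in all 3 placebo libraries. Its direction in sham thus differed between the rankings, on few UMIs, and the part of the 2 markers was not tested.

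Beside them, the tip-link partners Anks4b (0.71 ± 0.29) and Calml4 (0.90 ± 0.24) rose with the surface markers, as did 9 of 13 other bundlers, linkers and caps, among them Slc9a3r1 (1.89 ± 0.29), Actb (1.56 ± 0.15) and Cobl (1.31 ± 0.14), while Mtss1 fell by 1.89. In the terminal web 4 of 9 rose, led by Actn4 (1.76 ± 0.15), and 2 of 4 other myosins. Enzymes moved both ways, Mep1a (1.62 ± 0.15) and Mep1b (0.89 ± 0.20) up and Dpp4 (-2.15 ± 0.32) and Mgam (-1.49 ± 0.32) down. Of 8 transcription factor genes 3 rose and 4 fell, among them Cdx2 (-1.14 ± 0.16), and the 3 that rose were a share near that of all genes.

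**Figure D3:**
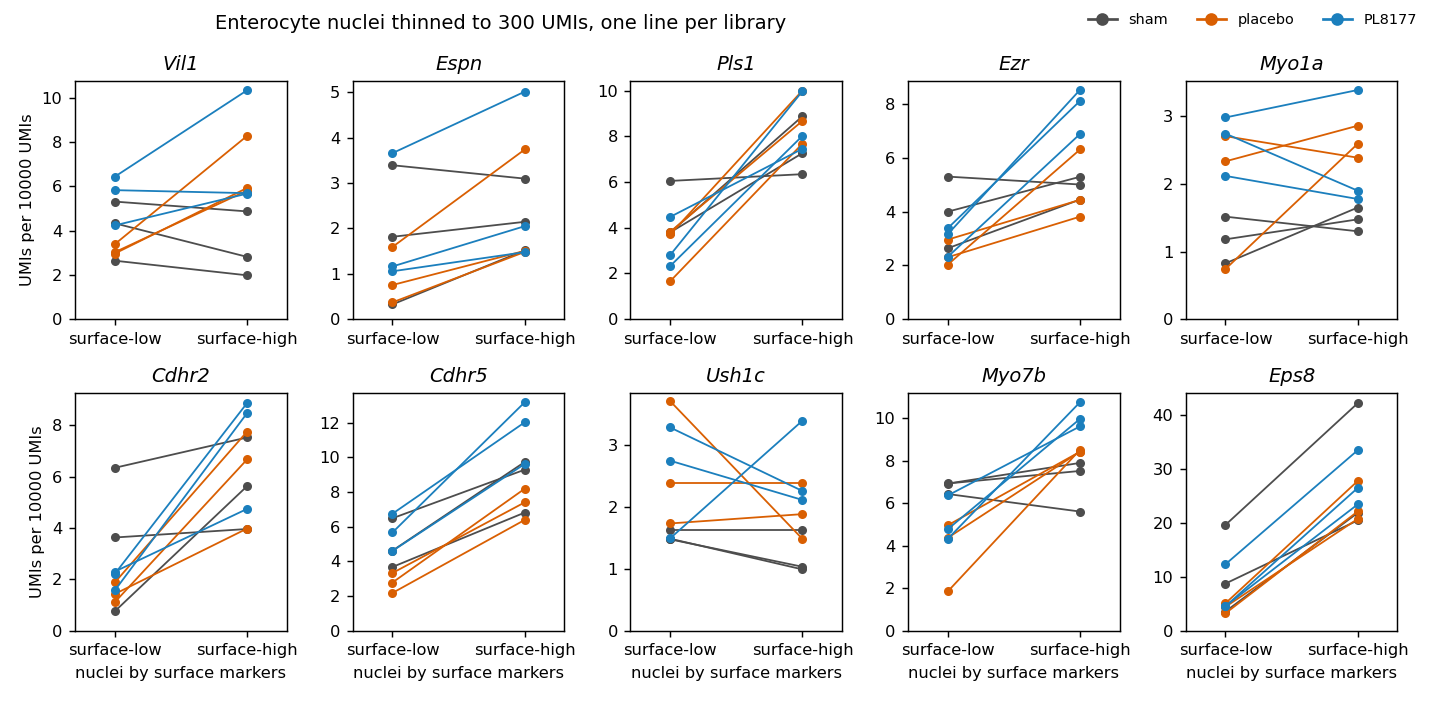
UMIs per 10000 UMIs (linear axes from 0) in surface-low and surface-high enterocyte nuclei, thinned to 300 UMIs, with 1 line per library coloured by treatment. Eps8 lines rose in 9 of 9 libraries, and Vil1 lines fell in 3 sham libraries and rose in 3 placebo libraries, a direction that turned in 2 sham libraries without Slc26a3 and Muc13 among the markers.

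T cells, which build no brush border, served as background. In the 8 libraries other than GR23, T cell nuclei held 9.96 to 28.3 UMIs of the 10 genes per 10000, but in the placebo library GR23 they held 74.7, above the level of its own enterocytes (50.5). GR23 gave 685 of the 1018 T cell nuclei and 5823 of the 6552 UMIs of the 10 genes in them. Its T cell nuclei held 2.13 per 10000 of T cell markers (4 of the 13 found at 0) and 137 of enterocyte markers, so they went against their label. Without GR23, 13.2% of T cell nuclei had a UMI of Vil1 (median depth 753 UMIs) and 43.8% of enterocyte nuclei; thinned to 300 UMIs, these were 2.30% (95% exact interval 0.931 to 4.69) and 14.1% (13.3 to 14.9), and 20.9% in GR23 T cell nuclei. For Ezr, a gene not limited to epithelium, the thinned shares were 8.22% (5.39 to 11.9) and 12.3% (11.6 to 13.004), the closest pair of the 10 by ratio. Cell types were assigned by the authors from these counts, so the gap is a description.

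**Figure D4:**
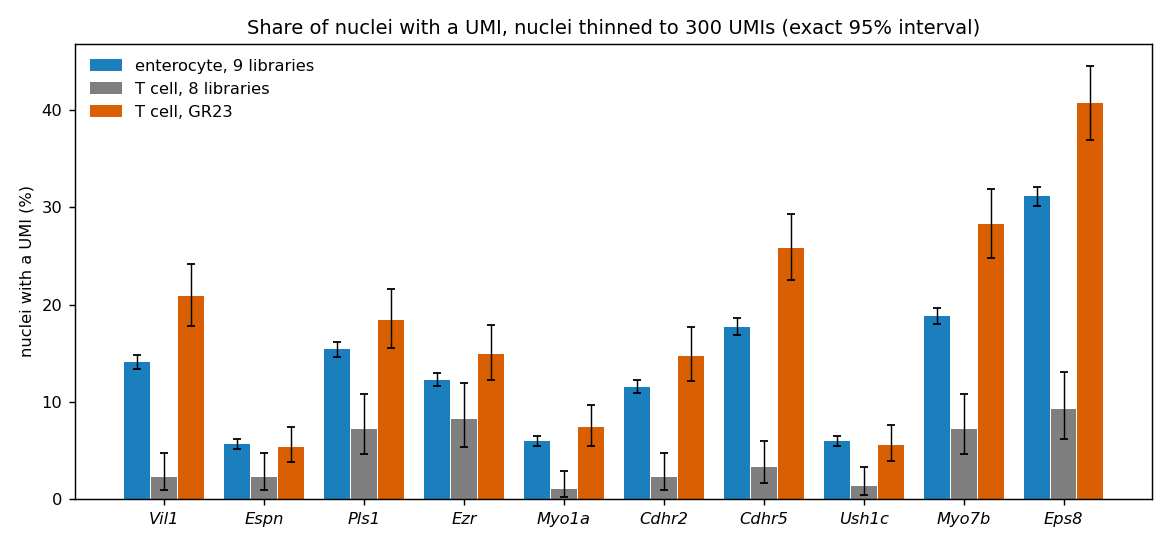
Percent of nuclei with a UMI after thinning to 300 UMIs (linear axis from 0, bars with exact 95% binomial intervals that cover counting error only) in enterocytes of 9 libraries, T cells of 8 libraries and T cells of GR23. Vil1 was seen in 14.1%, 2.30% and 20.9% of nuclei.

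Treatment comparisons in T cell nuclei could be made for 7 of the 10 genes (not Myo1a, Ush1c and Espn) among 1828 genes. No gene passed in edgeR or DESeq2 (0% in both comparisons with placebo; 90 and 18 genes at an unadjusted p below 0.05). Cdhr5 (-3.14 ± 1.01), Myo7b (-2.02 ± 0.83) and Pls1 (-1.96 ± 0.75) had lower values in sham at an unadjusted p below 0.05, against 4.05% of all genes, and none of the 7 for PL8177, against 0.547%. Without GR23 the values for sham were -0.89, -0.29 and -0.72.

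Over the 9 enterocyte libraries, the genes outside the lists whose log2 level followed the mean of the 10 most closely were Stard4 (Pearson r = 0.949), Tuft1 (0.945), Rab24 (0.941), Dedd2 (0.940) and Nuak2 (0.938), the highest of 9317 genes compared. Each of the 10 followed the mean of the others with r from 0.47 (Espn) to 0.91 (Myo7b). These libraries differ in treatment and depth, and the values describe 9 points.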

How the data were processed

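Single nuclei libraries were made with the 10x Chromium 3' kit. The authors deposited whole UMI counts per gene and nucleus, without normalization for depth, for T cells and enterocytes of each treatment in 6 tables. Per the labels, they counted with Cell Ranger 6.0.1, introns included, on rat genome 6.0, applied CellBender, retained genes found in 3 or more cells, required 200 or more genes and a mitochondrial share below 5% in each cell, and named Seurat 4.0.3. The last line of the T cell table for placebo was incomplete, so T cells were compared over 15108 genes. Doublets were not called.

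UMIs were summed per library tag and compared by the quasi-likelihood test of edgeR 4.0.16 (R 4.3.3; TMM, filterByExpr, glmQLFit, glmQLFTest, Benjamini-Hochberg adjustment over all genes tested, 9 libraries in 1 fit). Calls needed an adjusted p below 0.05 and a log2 fold change above 0.5 in enterocytes or 1.5 in T cells. DESeq2 1.42.0 was the alternative. The fits were tested on simulated data. For shares and nucleus classes, nuclei were thinned to 300 UMIs, leaving out 252 sham, 103 placebo and 207 PL8177 enterocyte nuclei and 63 T cell nuclei. Python 3.11.15, numpy 2.4.6, scipy 1.17.1, pandas 2.3.3 and matplotlib 3.10.9 did the rest. Members and lists were chosen with earlier results of these data known. Genes named outside the 10 are the 3 per list with the smallest p for sham against placebo and the 5 most alike in profile; those named for surface-high against surface-low nuclei were chosen after their values were seen.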

Additional observations from a re-analysis of the deposited data

Results flagged for a closer look

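Vil1 moved in opposite directions between sham and placebo when enterocyte nuclei rich and poor in surface markers were compared: its log2 ratio was -0.62 to -0.13 in the 3 sham libraries and 0.94 to 1.29 in the 3 placebo libraries. The fitted difference, sham minus placebo, was -1.42 ± 0.37 (SE), and the edgeR test of the difference between treatments gave an unadjusted p of 0.00147 and an adjusted p of 0.257 over 3292 genes. With the markers Slc26a3 and Muc13 left out, the fitted difference was -0.54 ± 0.35, and Vil1 was higher in the nuclei rich in markers in 2 of the 3 sham libraries (GR12 and GR15). Nuclei were ranked within each library, and in the ranking by all markers those poor in markers held up to 8 marker UMIs in sham (GR13) and up to 1 in placebo. The part of this in the difference was not tested.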

How the results depend on the processing

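No paired analysis was possible because no label ties the tags of different treatments to each other, also where they end in the same digit; in the comparison of nucleus classes within libraries, the fit with no replicate block called 514 genes, and the blocked one 439 higher and 2 lower. Enterocyte genes called, 0 by edgeR in each comparison, came to 107 (DESeq2), 51 (no filter on low counts) and 8 (thinned nuclei) for sham against placebo, 63 (DESeq2) and 8 (no filter) for PL8177 against placebo, and 4 (DESeq2) and 10 (no filter) for PL8177 against sham. Leaving out 1 library gave 0 to 8, 0 to 0 and 0 to 2. T cell calls without the filter were 33 for sham, Cdhr5 among them (adjusted p = 0.0222), and 4 for PL8177. The surface and crypt classes gave 1456 calls unthinned (GR12 and GR13 dropped out for want of crypt nuclei), 140 with at least 2 marker UMIs, 1870 without the filter, 58 with the size factors of DESeq2, 452 to 1444 with a library left out (1444 without GR23), and 1782 and 1189 for surface-high against surface-low nuclei (the latter without Slc26a3 and Muc13), both added after the data were seen; the class difference by treatment gave 0 to 1 with a library left out. The share of enterocyte nuclei with a UMI of the 10 genes was 74.2% after thinning.

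Of 420 alternatives for the 10 genes in enterocytes, 402 kept direction and side of the threshold, 2 gained a call (Ezr and Cdhr5 with DESeq2) and 16 reversed. None of the 10 was called in the main enterocyte fits, so these alternatives could not lose a call. For sham against placebo, Espn was -0.12 in nuclei with at least 500 genes and -0.045 to 0.86 with a library left out, Eps8 -0.084 to 0.73 and Pls1 -0.018 to 0.25. For PL8177 against placebo, Espn was -0.14 to 1.10. For PL8177 against sham, Espn was -0.50 to 0.68, Eps8 -0.30 to 0.51 (0.026 without the filter, 0.12 in nuclei with at least 500 genes), Pls1 -0.060 to 0.24 (-0.18 thinned) and Cdhr2 -0.25 thinned. In T cells, leaving out 1 library gave Cdhr2 -2.11 to 1.53, Eps8 -2.46 to 0.18 and Ezr -0.99 to 0.25 for sham, and Cdhr5 -1.13 to 1.61, Cdhr2 -1.92 to 1.21, Myo7b -1.01 to 1.10, Eps8 -1.45 to 1.33, Ezr -0.51 to 0.65 (0.48 in nuclei with T cell markers) and Pls1 -1.19 to 0.52 for PL8177, each highest without GR23. The cause was not tested.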
